A study of Mus musculus with 12 samples.

Results

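The regions described here are ATAC-seq peaks inside very long genes of the mouse. The genes are the RefSeq protein-coding genes on chromosomes 1 to 19 (GRCm38.p6, the assembly that mm10 names) with a span of 500 kb or more, 216 of 20665. A peak was a member when it lay wholly inside the span and more than 5 kb from both gene ends, a stretch called the gene interior below. Of the 3 peak lists that run over the whole genome, the list of retention control (RC) replicate 3 held 7455 such peaks of 96459 on the autosomes, that of extinction (EXT) replicate 1 held 5795 of 79656 and that of EXT replicate 2 held 9409 of 121469. These are 7.73%, 7.28% and 7.75% of each list. Exons were not separated from introns, so a peak is known to lie within a gene and not to be intronic. Of the 216 genes 5 overlap another of them and share peaks with it.

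ATAC-seq maps open chromatin by letting a transposase insert sequencing adapters into accessible DNA. The cells came from the infralimbic prefrontal cortex (ILPFC) of adult male C57BL/6 mice aged 10 to 12 weeks, were sorted as positive for both Arc, an activity-induced protein, and NeuN, a neuronal nuclear protein, and each library used 50000 cells from 5 pooled mice. All mice, RC and EXT alike, had been conditioned with 3 tone and shock pairings. EXT mice then heard 60 tones in a different context (context B), and RC mice spent the same time there without tones. The libraries held 57.7 M to 73.8 M tags.

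Very long genes are common among the genes that neurons use to build and run synapses. They encode adhesion proteins, receptors, ion channels and scaffolds, and nearly all of their length is intron. Such introns are known to hold enhancers, silencers, insulators and internal promoters from which shorter forms of the protein are made. Some very long genes also lie at common fragile sites, places where chromosomes break readily when replication is slowed.

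The labelled cell type could be checked only at promoters. Of 8 neuronal markers, 5 have an entry in the promoter table of RefSeq used here, and among these Slc17a7, the vesicular glutamate transporter of cortical excitatory neurons, and Syt1, a calcium sensor of vesicle release, had a peak in all 3 lists. Rbfox3, which encodes NeuN, had one in EXT replicate 2 alone, and Gad1 and Gad2, the enzymes that make GABA, had none. Peaks also met the promoter windows of 5 to 9 of 14 astrocyte markers, 1 to 7 of 14 oligodendrocyte lineage markers, 5 to 7 of 13 microglia markers and 3 to 5 of 12 endothelial and mural markers. For comparison, 33.9%, 32.4% and 39.4% of all autosomal promoter windows were met in RC replicate 3 and EXT replicates 1 and 2; a gene can have several windows. Several of these genes are expressed in neurons too, and what part other cells have in the peaks described here was not tested.

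Internal promoters are the places inside these genes where a sequence of known function can be set under a peak. RefSeq promoter windows run from 250 bases before to 50 bases after a start, and 117 windows in 72 of the long genes start inside their own gene, more than 5 kb from both ends. Of these, 38 (32.5%) were met by a peak in RC replicate 3 with 30 (25.6%) and 54 (46.2%) for EXT 1 and 2. All 3 lists had a peak at 27 of them (23.1%), beside 23.1% of inner starts of genes of 50 to 500 kb and 29.3% of all autosomal windows. No list had a peak at 61 of the 117, beside 18390 of all 31396 autosomal windows. The 6 sequences below are shown because their starts carried a peak in all 3 lists and either had the 3 highest mean within-list percentiles of −log10 q or belong to the 10 genes richest in peaks; this choice was made after the values were seen. Ank2 has another such window, chr3:126998403-126998702, where the folds were lower (2.69 to 3.11), and only the higher one is printed. Each is printed 5′ to 3′ along the gene, and capitals mark the bases that a peak covered in all 3 lists.
Ank2: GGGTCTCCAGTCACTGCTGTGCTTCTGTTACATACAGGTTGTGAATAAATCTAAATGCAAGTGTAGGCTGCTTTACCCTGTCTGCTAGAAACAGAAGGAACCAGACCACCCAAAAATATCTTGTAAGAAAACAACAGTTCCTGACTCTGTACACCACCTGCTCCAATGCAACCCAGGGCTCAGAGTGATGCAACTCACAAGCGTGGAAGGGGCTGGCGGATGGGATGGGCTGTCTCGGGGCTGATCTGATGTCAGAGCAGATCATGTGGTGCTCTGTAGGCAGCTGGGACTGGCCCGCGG
Frmd4a: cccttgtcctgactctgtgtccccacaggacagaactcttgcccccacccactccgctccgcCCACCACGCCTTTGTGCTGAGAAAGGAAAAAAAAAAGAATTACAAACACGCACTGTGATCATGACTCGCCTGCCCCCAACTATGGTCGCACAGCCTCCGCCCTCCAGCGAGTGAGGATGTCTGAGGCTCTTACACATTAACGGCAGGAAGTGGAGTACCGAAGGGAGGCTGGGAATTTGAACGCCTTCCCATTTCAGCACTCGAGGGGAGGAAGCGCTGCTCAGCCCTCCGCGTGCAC
Foxp1: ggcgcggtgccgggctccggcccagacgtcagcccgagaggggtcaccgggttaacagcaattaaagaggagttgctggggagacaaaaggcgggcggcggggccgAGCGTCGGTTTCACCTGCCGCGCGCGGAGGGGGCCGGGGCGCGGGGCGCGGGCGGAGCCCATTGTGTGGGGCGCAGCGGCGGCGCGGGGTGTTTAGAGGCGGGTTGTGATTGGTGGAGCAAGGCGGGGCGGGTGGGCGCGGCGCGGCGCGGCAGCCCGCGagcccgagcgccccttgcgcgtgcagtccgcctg
Celf2: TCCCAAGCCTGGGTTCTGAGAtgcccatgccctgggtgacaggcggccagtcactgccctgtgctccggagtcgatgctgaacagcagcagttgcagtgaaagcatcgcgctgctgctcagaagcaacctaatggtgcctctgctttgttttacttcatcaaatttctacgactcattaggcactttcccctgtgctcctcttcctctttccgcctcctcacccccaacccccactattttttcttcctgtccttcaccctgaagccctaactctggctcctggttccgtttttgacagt
Nav2: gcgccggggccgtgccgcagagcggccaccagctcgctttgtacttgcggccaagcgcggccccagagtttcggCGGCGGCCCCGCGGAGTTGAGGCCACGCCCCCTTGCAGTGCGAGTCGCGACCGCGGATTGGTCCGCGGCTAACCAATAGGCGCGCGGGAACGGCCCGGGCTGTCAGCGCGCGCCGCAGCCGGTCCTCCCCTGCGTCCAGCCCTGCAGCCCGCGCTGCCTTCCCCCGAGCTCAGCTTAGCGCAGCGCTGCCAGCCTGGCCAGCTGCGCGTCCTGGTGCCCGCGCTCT
Kalrn: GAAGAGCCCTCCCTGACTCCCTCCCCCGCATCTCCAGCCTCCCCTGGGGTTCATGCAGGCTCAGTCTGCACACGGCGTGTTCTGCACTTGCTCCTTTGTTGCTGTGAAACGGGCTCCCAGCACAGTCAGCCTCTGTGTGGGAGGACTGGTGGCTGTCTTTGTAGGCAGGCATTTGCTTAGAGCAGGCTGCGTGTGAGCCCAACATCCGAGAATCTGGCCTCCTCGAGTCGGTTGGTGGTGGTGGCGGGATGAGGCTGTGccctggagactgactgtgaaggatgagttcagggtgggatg

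The Ank2 window (chr3:127409009-127409308, minus strand, GRCm38.p6) lies 91.3 kb downstream of the 5′ end of its gene and was covered over all 300 bases in each list, with fold enrichments of 9.66, 5.62 and 9.79 in RC replicate 3 and EXT replicates 1 and 2. Ank2 encodes ankyrin-B, an adaptor that ties membrane proteins to the spectrin skeleton. The Frmd4a window (chr2:4559504-4559803, plus strand) starts an inner form 542 kb into the gene, and the Foxp1 window (chr6:99028249-99028548, minus strand) one 494 kb into it. Foxp1 encodes a forkhead transcription factor. At Foxp1 the peak was 160 bp wide in RC replicate 3 and in EXT replicate 1 and 243 bp wide in EXT replicate 2.

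The Celf2 window (chr2:6721613-6721912, minus strand), 675 kb into the gene, shared only 21 bases among the 3 peaks, which reached it from its upstream side. At Nav2 (chr7:49245939-49246238, plus strand), which encodes a neuron navigator protein of the cytoskeleton, 226 bases were shared 287 kb into the gene. The Kalrn window (chr16:34513978-34514277, minus strand) lies 59.3 kb into the gene and shared 259 bases. Kalrn encodes kalirin, a signalling protein of dendritic spines. Fold enrichments at Kalrn were 3.70, 2.87 and 4.73, below those at Ank2 in each list.

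Windows with a peak in all 3 lists held a median of 15 CpG dinucleotides, and those with no peak in any list held 6. Inner starts of genes of 50 to 500 kb gave the like pair of medians as 20 and 4. Outer starts of the long genes, those within 5 kb of the gene's end, had a peak in 46.8%, 47.4% and 62.3% of 154 windows. LncRNA genes that start inside a long gene had one in 7.58%, 7.20% and 9.09% of 264 windows. Over all 31396 autosomal windows the shares were 33.9%, 32.4% and 39.4%. The AP-1 motif TGANTCA, searched on both strands, occurred in 1 of the 27 windows with a peak in all 3 lists, in 8 of the 117 inner windows (6.84%) and in 7.84% of all windows. The cyclic AMP response element TGACGTCA occurred in 0 of the 27, in 1 of the 117 and in 1.83% of all windows.

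Annotated starts and ends of genes accounted for few of the members. Inner starts of the long genes themselves met 0.523%, 0.535% and 0.553% of the interior peaks of RC replicate 3 and EXT replicates 1 and 2. Another 2.15%, 2.36% and 2.58% lay within 1 kb of an end of another gene nested in or overlapping the long gene. Of the members at an inner start 74.4%, 90.3% and 57.7% were met in both other lists, beside 36.6%, 47.4% and 29.1% of all members.

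Peaks inside very long genes were sparser than inside shorter genes and denser than between genes. The interiors of the 216 genes cover 178 Mb once overlaps are merged. Density was 4.19 peaks per 100 kb in RC replicate 3, 3.26 in the first EXT list and 5.29 in the second. In the interiors of 4509 protein-coding genes of 50 to 500 kb it was 5.53, 4.41 and 7.09 in the same order. The ratio of long to shorter genes was therefore 0.758, 0.738 and 0.746, with a mean of 0.747 ± 0.00982 (SD, n = 3 lists), a log2 difference of -0.42 ± 0.019. Every list gave the lower value for long genes, and the two-sided exact sign-flip permutation test gave p = 0.25, the smallest that 3 lists allow. This p-value says only that the 3 lists agree in sign, whatever the spread between them. Each list comes from a pool of mice, and the lists mix RC and EXT.

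Outside all annotated genes the lists held 2.21, 1.81 and 2.86 peaks per 100 kb, so that long-gene interiors were 1.89, 1.80 and 1.85 times denser. Set against the whole autosomes, at 4.02, 3.32 and 5.06 peaks per 100 kb, the interiors of the long genes stood at 1.04, 0.981 and 1.04 times the average. The 3 lists differ in length, so a relative density, the density divided by that of the autosomes in the same list, is used for single genes below.

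Density was lower at longer spans. From genes of 50 to 100 kb to genes of 200 to 300 kb it was level, at 5.63 and 5.70 peaks per 100 kb in RC replicate 3. It then went down to 5.14 at 300 to 500 kb, 4.66 at 500 to 700 kb (98 genes), 4.37 at 700 to 1000 kb (63 genes) and 3.72 at 1000 kb and over (55 genes). EXT replicate 1 gave 3.63, 3.43 and 2.88 in the last 3 classes and EXT replicate 2 gave 5.87, 5.53 and 4.71. The order was the same in the 3 lists. This order describes classes and not single genes, since the median relative density went from 0.975 to 0.620 between the first and last of these classes while single genes ran from 0.0291 to 3.32, from 0.0952 to 2.90 and from 0.0575 to 2.39 within the 3 classes. On either side of the limit, taken by span alone, Edil3, Dock1 and Samd12, at 502, 503 and 503 kb, held 5, 19 and 23 interior peaks in RC replicate 3, and Dnm3, Lrrc7 and Cacna1e, at 496, 495 and 494 kb and so left out, held 16, 26 and 46.

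**Figure D1:**
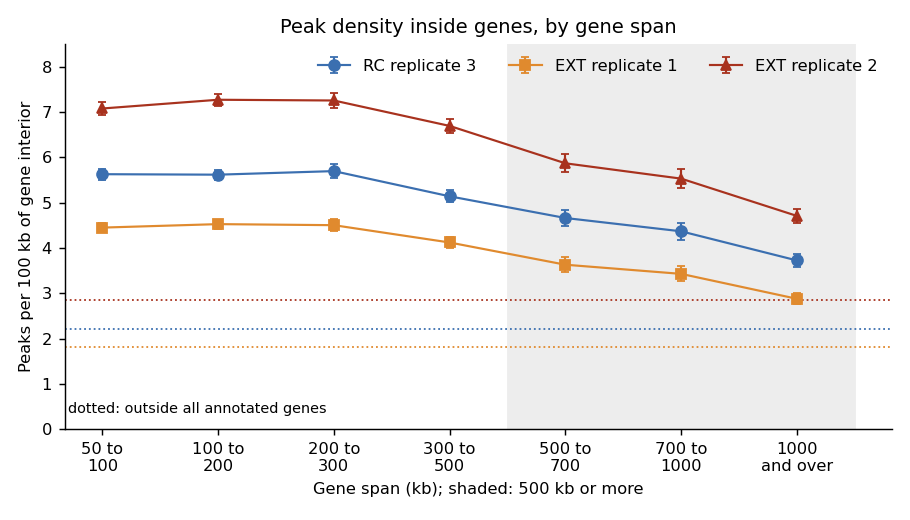
Peaks per 100 kb of gene interior (vertical axis) by gene span in kb (horizontal axis, 7 classes; 500 kb or more shaded) in RC replicate 3 and EXT replicates 1 and 2. Bars are exact 95% Poisson intervals, which cover counting error only, and dotted lines give the density outside all annotated genes; in each list the density was level up to 300 kb and lowest at 1000 kb and over.

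Single genes differed far more than the classes did. The mean relative density over the 3 lists ran from 0.0291 to 3.32, with a median of 0.898, quartiles of 0.387 and 1.66, and 0.238 and 2.18 at the first and last deciles. In genes of 50 to 500 kb the median was 1.24. Relative density of 1 or more in all 3 lists was found in 91 of the 216 long genes (42.1%), beside 45.7% of all 4725 coding genes of 50 kb or more. A value of 0.5 or less in all 3 was found in 59 (27.3%), beside 15.6% of all, and of 2 or more in 22 (10.2%), beside 15.6% of all. These counts were not tested, because genes are not replicates. Counting error also differs between long genes and this background, in which shorter genes carry fewer peaks each. Of the genes of 50 to 500 kb, 10.6%, 13.2% and 8.21% had 0 peaks in RC replicate 3 and EXT replicates 1 and 2. Among the long genes the shares at 0 peaks were 0%, 0.926% and 0%.

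The lists gave nearly the same order of genes. Across the 216 genes, Pearson's r of relative density was 0.959 for RC replicate 3 with EXT replicate 1 and 0.970 with EXT replicate 2. It was 0.958 for the EXT lists with each other. The genes of a list share its library, and each gene has the same sequence in all 3 lists. Of the 54 richest genes of each list, 44 were common to all 3 lists, and of the 54 poorest, 43. The genes Ank2, Celf2, Csmd2, Dlgap2, Kalrn and Nav2 were among the 10 richest in every list. Cntnap5b, Cpq, Erbb4, Iqcm, Pkhd1 and Skint5 were among the 10 poorest in every list.

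**Figure D2:**
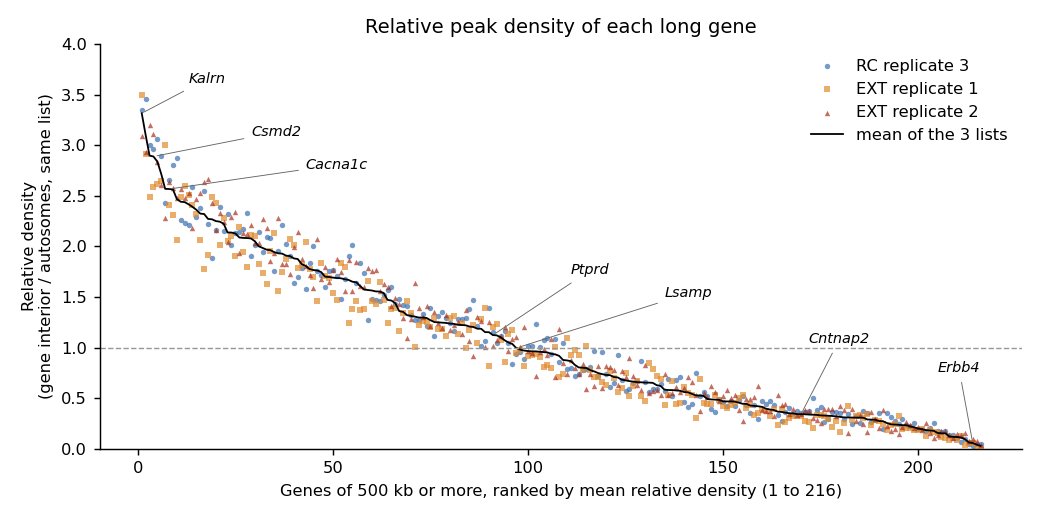
Relative peak density (vertical axis; density in the gene interior over that of the autosomes in the same list) of the 216 genes of 500 kb or more, ranked by their mean (horizontal axis). Points are the 3 lists and the line is their mean; it falls from 3.32 at Kalrn to 0.0291, and the lists lie close to each other along the whole range.

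Kalrn was the richest. Its span of 604 kb (chr16:33969073-34573277, GRCm38.p6) held 80 interior peaks in RC replicate 3 with 69 and 93 for EXT 1 and 2, or 13.5, 11.6 and 15.7 per 100 kb. Its mean relative density was 3.32 ± 0.206 (SD, n = 3 lists), and no stretch of its interior longer than 21.0 kb was free of peaks in all 3 lists. Nav2 (chr7:48959063-49610090) followed with 89, 62 and 95 peaks and 3.10 ± 0.308. Celf2, an RNA-binding regulator of splicing (chr2:6539694-7396341), held 102, 70 and 137 peaks at 2.90 ± 0.364, and Csmd2, a large membrane protein with complement-control domains, 68, 49 and 90 at 2.89 ± 0.272.

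Dlgap2, a postsynaptic scaffold protein, held 92, 65 and 107 peaks (2.84 ± 0.221). Ank2 held 66, 50 and 75 (2.72 ± 0.152), and Atrnl1, an attractin-like membrane protein, 50, 51 and 59 (2.57 ± 0.382). Cacna1c, the pore subunit of the L-type calcium channel Cav1.2, held 64, 48 and 80 (2.57 ± 0.135). Ptprn2, a receptor-type phosphatase-like protein of dense-core vesicles, held 88, 60 and 102 (2.56 ± 0.244), and Kcnma1, the pore of the BK potassium channel, 81, 48 and 88 (2.47 ± 0.405). The SDs of these 10 overlap between neighbours in the order. The 10 were chosen as the highest by these same values, so their distance from the median of 0.898 tests nothing.

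The poorest genes held almost no peaks over the same lengths. Skint5, a gene of an epidermal T-cell selection family (chr4:113477891-113999503), held 1, 0 and 1 peaks, and Iqcm (chr8:75448687-75984508) held 1, 0 and 2. Cpq, a plasma carboxypeptidase, held 1, 1 and 2. None of these 3 had a region in all 3 lists, and 7 of the 216 genes had none. No gene lacked peaks in all 3 lists; Skint5 and Iqcm lacked them in EXT replicate 1.

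Erbb4, the neuregulin receptor of cortical interneurons, is 1077 kb long (chr1:68031884-69108576) and held 1 peak in RC replicate 3 with 2 and 5 for EXT 1 and 2, a mean relative density of 0.0575 ± 0.0347. Its 8 peaks fell in 6 regions, and 1 region was in all 3 lists. That region, chr1:68334313-68334472, had the same bounds and a width of 160 bp in RC replicate 3 and EXT replicate 2 and began at the same base with 150 bp in EXT replicate 1. RC replicate 1, whose list reaches this far along chromosome 1, held a single peak in the gene, and it had these bounds too. Fold enrichments were 8.96, 4.34 and 10.5 in the 3 complete lists and 18.7 in RC replicate 1.

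Inpp4b, an inositol polyphosphate phosphatase, held 3, 1 and 6 peaks and had the longest stretch free of peaks in all 3 lists, 466 kb of its 792 kb. The other genes among the 10 poorest were Malrd1 (2, 3 and 5 peaks), Galnt13, a glycosyltransferase of neurons (3, 2 and 5), Pkhd1, the fibrocystin gene of renal and bile-duct cilia (3, 2 and 3), Cntnap5b, a contactin-associated protein (4, 2 and 5), and Zfp804b, a zinc finger protein (4, 2 and 5). At counts this low a gene's density is known only roughly. For the 0 peaks of Skint5 in EXT replicate 1 the exact 95% Poisson interval reaches 0.721 per 100 kb, by counting error alone.

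Peak-free stretches are set in large part by the ranking, since the same peaks give both. Their lengths describe the genes and test nothing. In the 54 richest genes the longest stretch with no peak in any of the 3 lists had a median of 31.4 kb and reached 91.4 kb at most. In the 54 poorest the median was 182 kb, and 53 of the 54 had a stretch over 100 kb. Over all 216 genes the median was 80.4 kb, and 87 genes had a stretch over 100 kb. Mappability and base composition of these stretches could not be read from the files used here, and their part in the gaps was not tested.

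**Figure D3:**
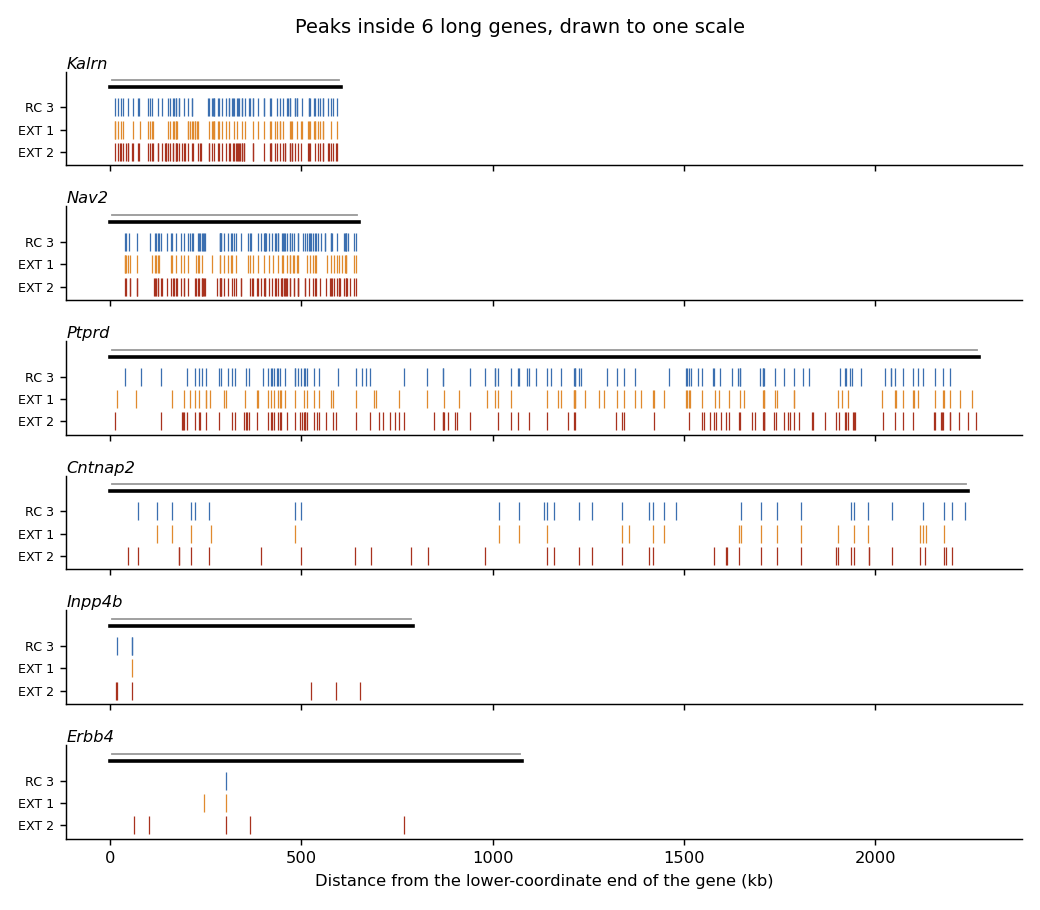
Peaks inside 6 long genes by distance from the lower-coordinate end of the gene (kb, one scale for all), with the span in black, the interior in grey and 1 row of ticks for each of RC replicate 3 and EXT replicates 1 and 2. Kalrn and Nav2 carry peaks along their whole length, Ptprd and Cntnap2 have like spans and differ in number, and Inpp4b and Erbb4 are nearly empty.

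The 5 longest genes did not share a density. Ptprd, a receptor tyrosine phosphatase that organises presynaptic sites, is 2271 kb long and held 105, 90 and 116 peaks (1.12 ± 0.0971). Cntnap2, which clusters potassium channels along axons, is 2241 kb long and held 32, 24 and 39 (0.342 ± 0.0166). Lsamp, a limbic cell-adhesion protein, held 82, 69 and 122 over 2197 kb (0.996 ± 0.0931). Lrp1b, a lipoprotein receptor-related protein, held 27, 22 and 28 over 2058 kb (0.307 ± 0.0322), and Macrod2, an ADP-ribosyl hydrolase, 45, 30 and 55 over 1998 kb (0.522 ± 0.0585). Ptprd thus held 90 to 116 peaks where Cntnap2, of almost the same length, held 24 to 39. Ptprd stood above 1 on all peaks and below 1, at 0.783, on peaks with −log10 q of at least 5.

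Of 13 gene lists, the one named for synaptic scaffold and vesicle release and that of ion channels had the highest medians. The first is a mixed list, which also holds signalling enzymes, among them phosphodiesterases, and sorting receptors. Over all 216 long genes 42.1% were at 1 or more in all 3 lists and 27.3% at 0.5 or less, and the counts below are to be read against these shares. Among the 21 genes of the scaffold and release list the median of the mean relative density was 1.67. Of these, 14 were at 1 or more in all 3 lists, and the median over all 216 was 0.898. Ctnnd2, a catenin of dendritic spines, stood at 2.44 ± 0.158 below Dlgap2, while Pde1c, a calcium-dependent phosphodiesterase, stood at 0.157 ± 0.0179 and Sntg1, a syntrophin, at 0.233 ± 0.0532. Of 12 ion channel genes 8 were at 1 or more in all 3 lists and 0 at 0.5 or less, with a median of 1.34. Trpm3, a cation channel, and Ryr3, an intracellular calcium release channel, were the lowest of them at 0.683 ± 0.0828 and 0.657 ± 0.182.

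Adhesion genes, 51 of the 216, spread over most of the range. Their median was 0.952, with 23 at 1 or more and 14 at 0.5 or less in all 3 lists, shares close to the 42.1% and 27.3% of all long genes. Their values ran from 2.89 in Csmd2 and 2.32 ± 0.473 in Slit3, a secreted guidance cue, down to Cntnap5b and Erbb4. Among 7 glutamate and GABA receptor genes the median was 0.873, and 2 were at 1 or more in all 3 lists. Of 16 transcription factors and chromatin regulators 7 were, a share near the 42.1% of all, with a median of 0.838. Camta1, a calmodulin-binding factor, led these at 2.36 ± 0.095, and Zbtb20, a zinc finger repressor, closed the list at 0.233 ± 0.0314. Of 5 RNA-binding genes, with a median of 0.830, Celf2 and Rbfox1 (2.13 ± 0.219), a neuronal splicing factor, stood high and Zfp804b low.

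Close relatives could lie far apart. Csmd1 stood at 2.14 ± 0.156 and Csmd2 at 2.89, and Csmd3 at 0.307 ± 0.0633. Foxp1 held 55, 35 and 63 peaks at 2.08 ± 0.269, and Foxp2 held 6, 5 and 8 at 0.288 ± 0.00891, in genes of 597 and 541 kb. The ryanodine receptors Ryr2 and Ryr3 stood at 2.14 ± 0.14 and 0.657. The values of the 3 lists did not overlap between the high and the low member of a family; the families were picked after the values were seen, and no test was made.

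Marker lists of other cell types had lower medians, on few genes. The 5 astrocyte marker genes among the long genes had a median of 0.683 with 1 at 1 or more in all 3 lists. The 7 oligodendrocyte lineage genes had 0.581 with 3, the 4 endothelial and mural genes 0.616 with 1, and the 2 microglia genes, Arhgap15 (0.669 ± 0.203) and Dock2 (0.629 ± 0.0762), 0.649 with 0. Gpc5, a glypican abundant in astrocytes, had the lowest value of these lists at 0.184 ± 0.062, with 10, 6 and 18 peaks over 1433 kb. Several members, such as Ntm at 2.24 ± 0.203 and Dscam at 2.08 ± 0.122, are expressed in neurons and also belong to the adhesion list. Of 20 genes at known fragile sites 9 were at 1 or more in all 3 lists, with a median of 0.867; the median and the share are both close to those of all long genes. The 5 dystrophin-associated and muscle genes had a median of 0.466 and 1 at 1 or more, and the 6 activity-regulated long genes 1.12 and 3.

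**Figure D4:**
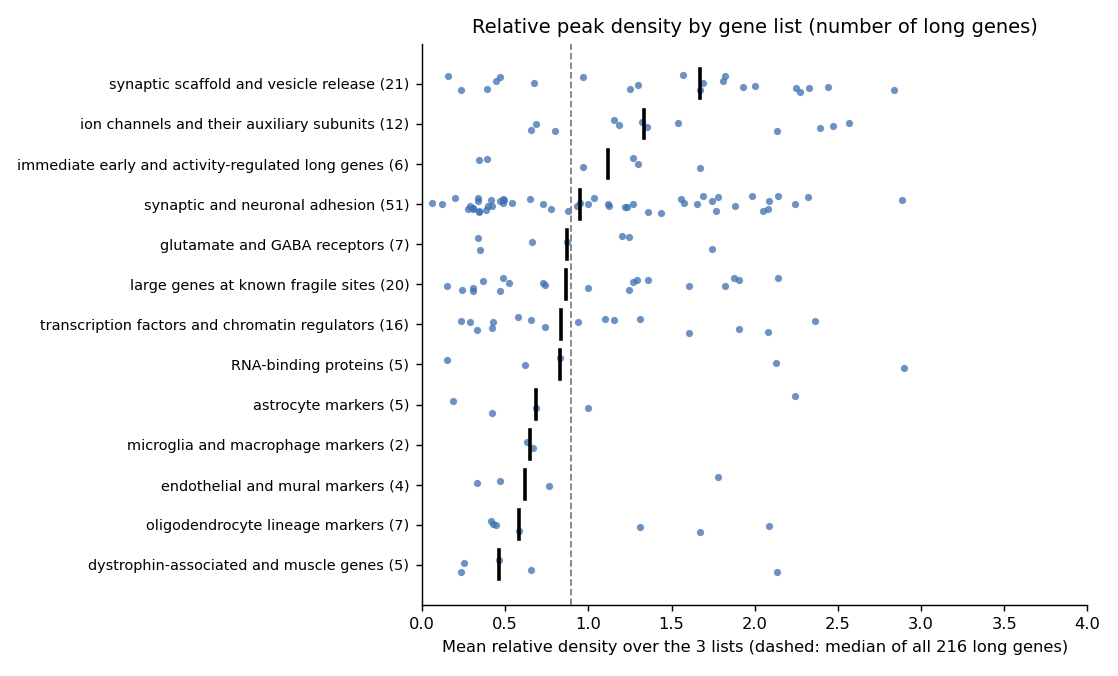
Mean relative density over the 3 lists (horizontal axis) of the long genes of 13 gene lists (rows, with the number of long genes), 1 point per gene, with the list median as a black bar and the median of all 216 long genes, 0.898, as a dashed line. The scaffold and release list, which also holds signalling enzymes and sorting receptors, and the ion channel list have the highest medians, 1.67 and 1.34. The adhesion genes spread from 0.0575 to 2.89.

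Position within the gene made a modest difference, with the highest densities toward the 3′ end. In the 169 genes whose strand the promoter table gives, the interior was cut into 10 equal parts from 5′ to 3′. Relative density was 1.02, 0.902 and 1.02 in the first part in RC replicate 3 and EXT replicates 1 and 2, and 1.14, 1.12 and 1.16 in the last. The eighth to the last part had the 3 highest values in each list. Distance from the 5′ end showed no rise toward the promoter, with 4.20, 3.52 and 5.30 peaks per 100 kb at 5 to 25 kb and 4.16, 3.35 and 5.29 beyond 500 kb.

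The median width was 211, 205 and 242 bp in RC replicate 3 and EXT replicates 1 and 2, and 211, 204 and 241 bp in genes of 50 to 500 kb. The tags were extended to 150 bp by the peak caller, and no member was narrower than 150 bp. The commonest width was 160 bp in all 3 lists, at 15.2%, 13.4% and 10.8% of peaks, and 32.8%, 32.9% and 25.5% were 161 bp wide or less. Peaks of 500 bp or more made up 8.06%, 6.25% and 12.4%, against 9.25%, 7.07% and 12.8% in shorter genes, a mean difference of -0.82 ± 0.367 percentage points (SD, n = 3 lists; exact sign-flip permutation p = 0.25). In the rest of the autosomes, which holds most gene ends, the shares were 14.2%, 12.6% and 18.2%.

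Members ranked low within their lists. The median percentile of −log10 q, the authors' measure of confidence in a peak, was 36.8, 38.4 and 40.1, beside 42.0, 41.7 and 42.7 in shorter genes and 55.1, 54.8 and 54.1 in the rest of the autosomes. The difference from shorter genes was -3.69 ± 1.32 percentile points and went the same way in all 3 lists (exact sign-flip permutation p = 0.25, the smallest possible). The widest members measured 1659, 1223 and 1676 bp, and peaks of 1500 bp or more numbered 2, 0 and 3.

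A few members stood among the highest peaks of the genome. The highest by mean within-list percentile lay in Atrnl1, at chr19:58113217-58113670, with fold enrichments of 37.6, 34.2 and 31.8 in RC replicate 3 and EXT replicates 1 and 2. Next were chr12:67059131-67059920 in Mdga2, an adhesion protein that restrains synapse formation (26.9, 29.6 and 24.1), and chr8:14306674-14307430 in Dlgap2 (10.5, 11.8 and 12.6). Then came chr4:20191746-20192196 in Nkain3 (26.2, 24.98 and 17.4) and chr18:38992661-38993434 in Arhgap26 (9.83, 7.07 and 12.3). None of these 5 regions lay within 1 kb of another gene's end or overlapped an annotated start. Nkain3 was itself a peak-poor gene, with 9, 7 and 13 peaks in the 3 lists.

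Recurrence was lower than in shorter genes. Merging the 3 lists by an overlap of at least 1 bp gave 13784 regions inside the long genes. Of these 7861 (57.0%) were in 1 list, 3177 (23.0%) in 2 and 2746 (19.9%) in all 3. Shorter genes gave 53.5%, 24.0% and 22.5%. Of the regions in 1 list, 4238 were of EXT replicate 2, the longest list, 2056 of RC replicate 3 and 1567 of EXT replicate 1. By list, 36.6%, 47.4% and 29.1% of the peaks of RC replicate 3 and EXT replicates 1 and 2 were met in both other lists, against 40.6%, 51.0% and 31.5% in shorter genes. The mean difference was -3.32 ± 0.791 percentage points (SD, n = 3 lists), with the same sign in each list (exact sign-flip permutation p = 0.25).

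Recurrence was highest among wide peaks. Of peaks of 500 bp or more, 82.7%, 89.0% and 68.3% were met in both other lists, and of peaks of 161 bp or less 28.1%, 39.4% and 25.4%. Between these widths lay most members, and 35.1%, 47.4% and 22.9% of them were met in both other lists, above the narrow class in RC replicate 3 and EXT replicate 1 and below it in EXT replicate 2. Some narrow peaks nevertheless recurred to the base: 318 members had the same first and last base in all 3 lists, and 293 of these (92.1%) were 161 bp wide or less, 228 of them 160 bp. Genes of 50 to 500 kb held 1408 such peaks, 90.9% of them 161 bp wide or less. These peaks made up 4.27%, 5.49% and 3.38% of the members of RC replicate 3 and EXT replicates 1 and 2. In the shorter genes they made up 4.82%, 6.04% and 3.76%. The region of Erbb4 in RC replicate 3 and EXT replicate 2 was 160 bp wide. What sets a shared width of 160 bp, near the extension of the tags, was not tested.

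**Figure D5:**
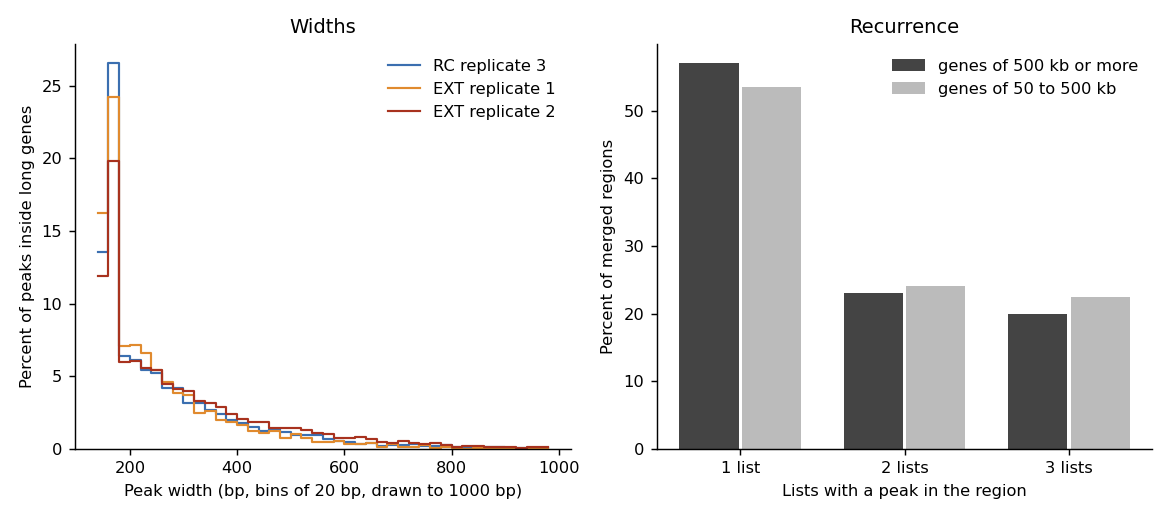
Left, percent of peaks inside long genes by width (bp, bins of 20 bp, drawn to 1000 bp) in the 3 lists; each has its maximum in the bin of 160 to 179 bp. Right, percent of merged regions with a peak in 1, 2 or 3 lists in genes of 500 kb or more and of 50 to 500 kb; 19.9% and 22.5% were in all 3.

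Recurrence was also counted by gene. The 54 richest genes held 47.2% of all regions, counted by gene, and 20.9% of theirs were in all 3 lists. The 54 poorest held 6.60%, of which 17.5% were in all 3. In Kalrn 42 of 124 regions (33.9%) were in all 3 lists, in Cacna1c 33 of 100 (33.0%), in Celf2 32 of 205 (15.6%) and in Ptprd 30 of 211 (14.2%). The list of RC replicate 1, which took no part in the merging, offers a second look on chromosome 1. It met 91 of 104 regions that were in all 3 lists (87.5%, exact 95% binomial interval 79.6% to 93.2%), 83 of 138 in 2 lists (60.1%, 51.5% to 68.4%) and 109 of 408 in 1 list (26.7%, 22.5% to 31.3%). These intervals do not overlap, cover counting error only and treat each region as independent. In the shorter genes on chromosome 1 RC replicate 1 met 83.3%, 69.2% and 33.6% of regions in 3, 2 and 1 lists. The rise with the number of lists was therefore not particular to long genes.

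EXT and RC could be compared with replicates only on chromosome 1, since the lists of RC replicates 1 and 2 end within it, as held here. Up to position 37624379, reached by 5 lists, there are 7 long genes with 4.38 Mb of interior. RC replicates 1, 2 and 3 held 5.46, 5.09 and 3.33 peaks per 100 kb there, and EXT replicates 1 and 2 held 2.49 and 4.52. The means were 4.63 ± 1.14 for RC (SD over 3 lists) and 3.51 ± 1.44 for EXT (SD over 2 lists). RC replicate 3 lay between the EXT lists, so the groups overlap. EXT less RC was -0.43 on the log2 scale, with a two-sided exact permutation p = 0.4, where 10 splits allow no p under 0.1. Without EXT replicate 1 the difference was -0.0012, so it rests on that list.

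The share of a list's peaks on that stretch that lay inside long genes showed the same overlap. It was 20.5%, 17.9% and 16.3% in RC replicates 1 to 3 and 13.5% and 17.2% in EXT replicates 1 and 2. The difference was -2.88 percentage points (exact permutation p = 0.4), and -1.03 without EXT replicate 1. Over the longer stretch up to position 166286196, with 16 long genes and 4 lists, RC replicates 1 and 3 held 3.50 and 2.54 peaks per 100 kb and EXT replicates 1 and 2 held 2.10 and 3.19, a log2 difference of -0.21 (exact permutation p = 0.667; 6 splits allow no p under 0.33). The shares there were 6.96% and 6.45% in RC and 6.35% and 6.28% in EXT, which do not overlap, with an exact permutation p = 0.33. Their 95% intervals, which cover counting error only, do overlap. Those of the lists farthest apart were 6.35% to 7.61% in RC replicate 1 and 5.71% to 6.90% in EXT replicate 2.

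Gene by gene on the first stretch, Adgrb3, an adhesion receptor of excitatory synapses, held 91, 89 and 52 peaks in RC replicates 1 to 3 and 37 and 72 in EXT replicates 1 and 2. Rims1, an active-zone scaffold, held 65, 61, 26, 28 and 46 in the same order, Kcnq5, an M-type potassium channel subunit, 42, 35, 31, 15 and 35, and Khdrbs2, an RNA-binding protein, 19, 17, 15, 17 and 21. Sntg1 held 10, 9, 11, 6 and 10 and Pkhd1 1, 3, 3, 2 and 3. These are all the long genes of the stretch but 1, which is named only by an identifier. In none of these 6 did the EXT values lie all above or all below the RC values.

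Across the genome a single RC list stands against 2 EXT lists, so a gene was called only by size, when the relative density in both EXT lists was at least 1.5 times, or at most 1/1.5 of, that in RC replicate 3, among genes with 10 or more peaks in all. Higher in EXT was 1 of 211 long genes, beside 4.38% of the 3037 coding genes of 50 kb or more. Lower in EXT were 2 of 211, beside 2.96%. With EXT replicate 1 left out these counts became 10 and 16, and with EXT replicate 2 left out 1 and 12, since a single EXT list then had to pass. The gene called higher was Malrd1, with 2 peaks in RC replicate 3 and 3 and 5 in the EXT lists. Those called lower were Hpse2, a heparanase relative, with 12 against 4 and 9, and Sgcz, a sarcoglycan, with 16 against 7 and 13. Long genes carry more peaks each than shorter ones, so counting error differs between them and the background.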

How the data were processed

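Peaks of 5 ATAC-seq libraries (57.7 M to 73.8 M tags, per the file headers) were used, 3 RC and 2 EXT. EXT replicate 3 and the 6 lncRNA capture libraries were not analysed here. The authors ran MACS2 2.2.4 on every library alone (per the file headers), without a control, with a shift of -75 bp, an extension of tags to 150 bp, duplicates kept and a q-value cutoff of 0.05. For the ATAC-seq reads the aligner is not given in the sources used. The deposited pileup is a coverage signal at the summit, the deposited fold enrichment is its ratio to the local background, and the deposited −log10 q belongs to its own list and was used to describe, rank or filter peaks within it. Kept duplicates and the extension can shape narrow peaks. Depth of single peaks was not read from the reads, so precision is the spread between lists.

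Gene spans came from RefSeq tables of GRCm38.p6. Densities count peaks wholly inside merged interiors. The tests were two-sided exact sign-flip permutations over 3 lists, and exact permutations of group labels on chromosome 1. Counting was tested on simulated peaks. Named genes are the 10 richest and 10 poorest, the 5 longest, genes called by the EXT to RC fold, the 2 richest and 2 poorest of each gene list and those with the 5 highest regions in all 3 lists; genes named only by an identifier were left out, and others named are marked as chosen after their values were seen or are all the named genes of the chromosome 1 stretch or the 3 nearest in span on each side of 500 kb. A gene that this rule selects is not reported here. The members and lists were chosen with earlier results of these data known. Alternatives were other spans, margins, thresholds and overlaps, lists of equal length and leaving out each list. Python 3.11.15, pandas 2.3.3 and scipy 1.17.1 were used.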

Additional observations from a re-analysis of the deposited data

How the results depend on the processing

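Density inside long genes stayed below that in shorter genes under each alternative run. The mean share of peaks met in all other lists fell to 25.6% when an overlap of at least 50% of both peaks was asked for, and leaving out 1 list, which leaves a single other list to meet, gave 47.1% to 55.0%. The median width less that of shorter genes turned to -1.33 bp with a margin of 20 kb, within its spread. Relative density of Ptprd turned below 1 with −log10 q of at least 5 (0.783) and with lists of equal length (0.90). Counts of long genes called higher and lower in EXT, 1 and 2, became 4 and 6 from 300 kb, 0 and 1 from 1 Mb, 0 and 0 at a fold of 2, and 8 and 5 without peaks of 161 bp or less, an alternative chosen after seeing the data. Those called higher became 3 with a margin of 20 kb and 2 with −log10 q of at least 5, with lists of equal length or with at least 1 peak. Leaving out EXT replicate 1 gave 10 and 16, and leaving out EXT replicate 2 gave 1 and 12. The cause of these moves was not tested, other than fewer lists to satisfy. With a replicate block by number on chromosome 1, the log2 difference was -0.65 and that of the share -3.85 percentage points (exact permutation p = 0.5 for both). Deviations of same-numbered lists from their group means had correlations over 7 genes of -0.465 and -0.279. With 2 EXT lists the deviations of the first mirror those of the second. The peak list of EXT replicate 2 carries the number 3 in its own name, and the number of its sample title was used for this pairing. Whether same-numbered lists share more than a number therefore could not be told. The number of lists limits every comparison, and counting error limits genes with few peaks. EXT replicate 2 had the fewest tags (57.7 M) and the longest list, 123375 peaks on all chromosomes. RC replicate 3 had the most tags (73.8 M) and 97961 peaks. What part depth has in the counts was not tested.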
